A study of Homo sapiens with 6 samples.

Results

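LINC symbols, made of these letters and a number, are given to long noncoding RNA genes that lie between coding genes and have no name of their own. The 97 LINC-named genes described here were selected on abundance, as every LINC-named gene with a mean raw count of 60 or more over 6 RNA-seq libraries of human bladder cancer cells. They are 97 of the 975 LINC-named genes among the 56303 genes of the deposited count table. Of the other LINC-named genes, 878 lay below that mean, and 356 of these had a count of 0 in each library. The 97 members held 92.5% of all counts in LINC-named genes. The mean over both groups chose the members, so that their being detected is no result.

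The libraries came from T24, an established human cell line of bladder carcinoma origin, labelled wild type throughout. Cells were transfected for 48 h with siNC, a negative control siRNA, or with siFBXL6, siRNA against FBXL6, an F-box protein of the SCF ubiquitin ligases, and libraries were made with a stranded mRNA kit. Each group held 3 libraries, all 6 under 1 batch label, from 1 line at 1 time. Which of the study's siRNAs was used, and whether replicates were separate cultures, is not given in the sources used here. The labels of siFBXL6 replicates 1 and 2 are also names of siRNAs in the study, and the numbers were read as replicates. The p-values therefore measure only the spread between these samples, which may be technical. The question was which transcripts differ in level after FBXL6 is targeted. Total counts were 58646515, 60967902 and 56814946 in siNC replicates 1 to 3. They were 60968158, 60898556 and 60754015 in the siFBXL6 replicates.

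Long noncoding RNAs are transcribed by RNA polymerase II, and most are capped, spliced and polyadenylated like messenger RNAs but have no long reading frame. Many stay in the nucleus and act near their own gene, through the RNA or through the act of transcription, while others bind proteins or microRNAs in the cytoplasm. Several are known for their raised levels in carcinomas of the bladder, and many are poorly conserved and expressed in few cell types.

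The name describes most but not all members. All 97 were matched to RefSeq, where 75 kept their LINC name and 22 had another. RefSeq classed 90 of the 97 as long noncoding RNA, 6 as protein-coding and 1 as a transcribed pseudogene, so the data go partly against the label and the members are called LINC-named transcripts below. The 6 coding members are LINC00998 (SMIM30), LINC00493 (SMIM26), LINC01420 (NBDY), LINC00950 (TMEM8B), LINC00094 (BRD3OS) and LINC00672 (LASP1NB). The remaining member, LINC01296, is named after the pseudogene DUXAP9 in RefSeq, but the position of that RefSeq gene does not overlap the one in the count table. Names and positions of the table follow GRCh38.

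FBXL6 itself, the gene targeted, had raw counts of 362, 414 and 398 in the libraries labelled siNC and 398, 344 and 350 in those labelled siFBXL6. The highest siFBXL6 library lay inside the range of the siNC libraries, so that the groups overlapped. Its level was 6.61 ± 0.38 CPM against 6.03 ± 0.483 CPM (counts per 1000000 after TMM scaling, mean ± SD, n = 3 each). The log2 fold change was -0.13 (SE 0.088, 95% interval -0.31 to 0.05), with an adjusted p of 0.247 in edgeR's quasi-likelihood test and a two-sided exact permutation p of 0.2, where 0.1 is the smallest that 3 against 3 allows. With replicate numbers as a replicate block, the value was -0.13. The interval reaches no lower than -0.31. The counts of FBXL6 thus give no check of which libraries received siFBXL6, and every direction given here rests on the sample labels.

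The members' summed level was slightly higher in the siFBXL6 libraries. It was 656, 652 and 648 CPM in the siNC libraries and 686, 699 and 685 CPM in the siFBXL6 libraries. All 3 siFBXL6 libraries were above all 3 siNC libraries. A single member, LINC01468, made up 15.5% of the members' counts, and the 8 most abundant made up 41.4%. LINC01468 itself rose from 93.7 ± 4.2 to 114 ± 5.29 CPM, while LINC00511 fell from 47.1 ± 2.54 to 32.1 ± 0.658 CPM. The sum thus leans on its most abundant members and does not describe the 97 as a whole. In such bulk samples, fewer cells holding a transcript and less of it per cell cannot be told apart.

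Of the 97 members, all of which passed the low-count filter, 35 (36.1%) differed between the groups in edgeR's quasi-likelihood test at a Benjamini-Hochberg adjusted p below 0.05, which is what called means from here on, beside 40.2% of the 21298 genes tested. Of these, 23 (23.7%) rose in the siFBXL6 libraries, beside 20.5% of all genes, and 12 (12.4%) fell, beside 19.8%. Changes of 2-fold or more occurred in 5 members (5.15%), beside 2.92% of all genes, and all 5 rose, beside 1.77% of all genes. None fell 2-fold, beside 1.15% of all genes. That count was 0 in edgeR with adjusted and with unadjusted p and 0 in DESeq2, but without siFBXL6 replicate 1 LINC01088 reached a called log2 fold change of -1.0 (adjusted p = 0.00207). The groups did not overlap in CPM for 41 members (42.3%), beside 48.2% of all genes tested. With replicate numbers as a replicate block the counts were 35 called, 23 higher, 12 lower and 5 at least 2-fold, and the median log2 fold change was 0.07. DESeq2 called 26 members, 20 higher and 6 lower, and did not call LINC00493, LINC00339, LINC01184, LINC00839, LINC01270, LINC00950, LINC00869, LINC01420 and LINC00342, of which LINC00339 and LINC01420 were also not called without a low-count filter. The shares of members called describe them and are read no further, since the floor itself bears on them. A mean below 60 in 1 group alone was found for 4 members in siNC, of which 3 rose (LINC01291, LINC01127 and LINC00973), and for 3 members in siFBXL6, of which 1 fell (LINC01088). A member that passed through 1 group had to differ, which holds for 3 of the 5 changes of 2-fold or more, and with a mean of 60 required in each group 2 of 90 members remained.

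**Figure D1:**
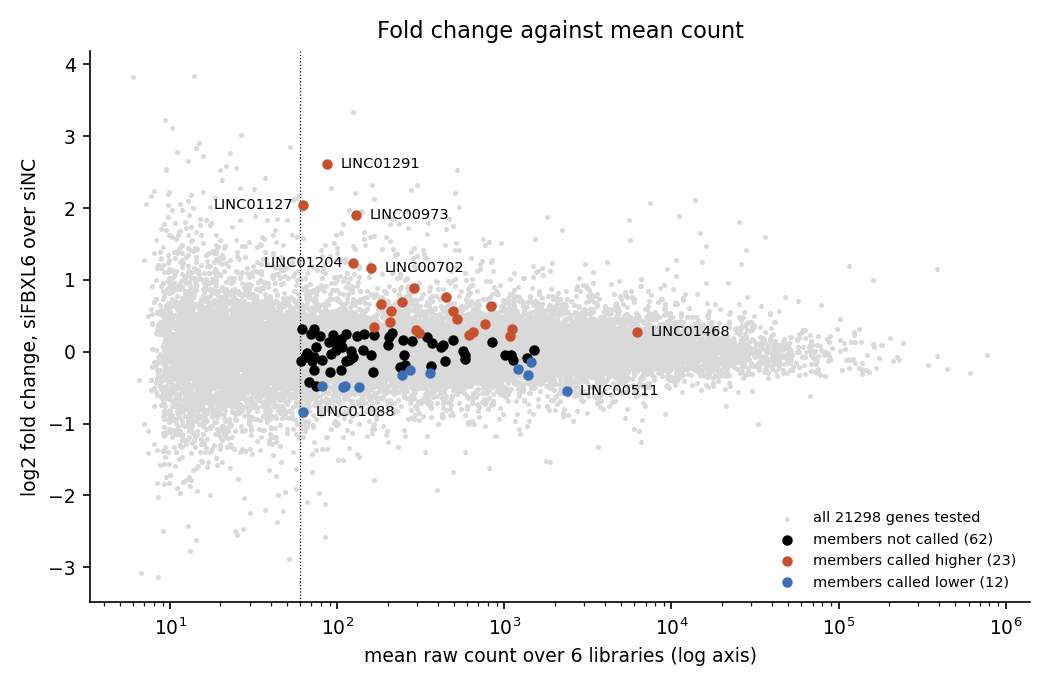
Log2 fold change (siFBXL6 over siNC) of every gene tested against its mean raw count over 6 libraries on a log axis, with members not called in black, called higher in red and called lower in blue, and the floor of 60 as a dotted line. The 5 members above a log2 value of 1 all lie at mean counts from 62.5 to 160, and LINC01468 at 6214 stands to the right of the other members.

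Most changes were small. The median log2 fold change of the 97 members was 0.06, beside -0.01 over all genes tested, and without siNC replicate 1 it was 0.02. Called members that rose had a median of 0.57, beside 0.30 for all genes called higher. Called members that fell had a median of -0.40, beside -0.27 for all genes called lower. These medians were not matched for depth, which bears on how small a change can be called. Median mean counts were 297 for members that rose and 258 for those that fell, beside 477 over all genes tested. Those that rose include LINC01291, LINC01127 and LINC00973, which passed the floor through siFBXL6 alone, and those that fell include LINC01088, which passed through siNC alone. Of the 35 called, 11 changed by at least 1.5-fold and 24 by less. The plot of fold change against mean count shows the called members of small change on its right, where the standard errors are smaller.

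Other classes of noncoding genes at the same floor give a frame for the members' 36.1% called. Among 383 antisense-named genes 33.9% were called, with 74 higher and 56 lower. Among 410 genes named by a clone accession, such as AC133644.2, 37.8% were called, with 75 higher and 80 lower. Genes named after a clone in another form, such as RP11-57A1.1, were counted with the other genes at the floor. For 14 genes named after a microRNA they host the share was 57.1%, and for the 15285 other genes at the floor it was 50%. At least 2-fold changes made up 1.04% of the antisense-named, 1.71% of the clone-named, 7.14% (1 of 14) of the microRNA host-named and 1.41% of the other genes at the floor, beside 5.15% of members. The shares were not tested against each other.

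Depth set much of what could be called. Members with a mean count of 60 to under 120 were called in 6 of 35 cases (17.1%, beside 23% of all genes of that depth), and their median standard error was 0.185 on the log2 scale. From 120 to under 300 it was 13 of 30 (43.3% beside 32.7%). From 300 to under 1000 it was 9 of 20 (45.0% beside 45.3%), and above that 7 of 12 (58.3% beside 60.9%) with a median standard error of 0.052. The smallest change called among members was 0.48 in the lowest range and 0.14 in the highest, beside 0.37 and 0.08 among all genes of the same depth.

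**Figure D2:**
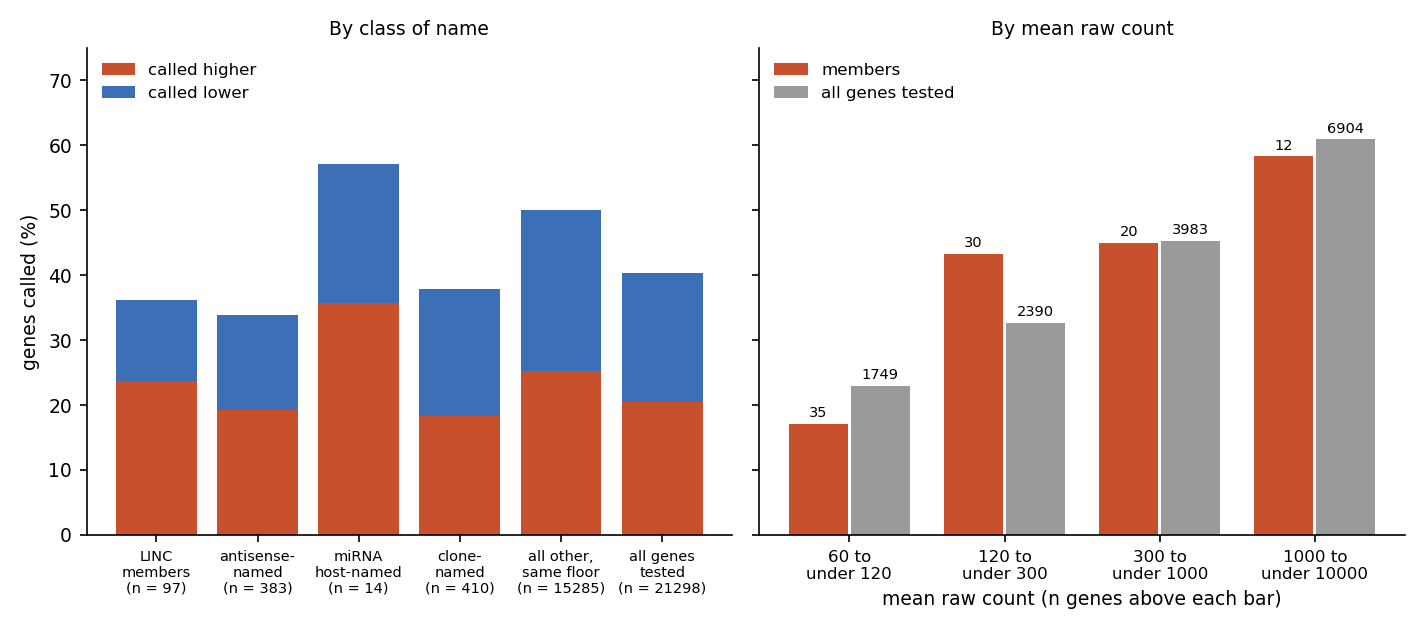
Percent of genes called, left by class of name at the floor (red higher, blue lower, with all genes tested in the last bar) and right by mean raw count for members (red) and all genes tested (grey), with the number of genes above each bar. Members stand at 36.1% on the left, and on the right rise from 17.1% to 58.3% with depth as all genes do from 23% to 60.9%.

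The plot of shares by class and depth shows members beside genes of like depth, where they are below in 3 of the 4 ranges and above from 120 to under 300.

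Near the floor, LINC00852, LINC01629 and LINC01088 were the members just inside, with mean counts of 60.5, 61.5 and 62. LINC00852 had 71, 56 and 61 counts in siNC and 76, 41 and 58 in siFBXL6. LINC01629 had 37, 57 and 68 against 56, 68 and 83. Both overlapped between the groups. Just outside lay LINC00106 with a mean of 56.8 (41, 59 and 57 against 65, 48 and 71). LINC01460 followed with 54.3 (47, 57 and 80 against 31, 58 and 53) and LINC00964 with 53.3 (49, 42 and 63 against 45, 51 and 70), and all 3 overlapped between the groups.

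The 5 members that rose at least 2-fold were LINC01291, LINC01127, LINC00973, LINC01204 and LINC00702, and all 5 are classed as long noncoding RNA and share no exon base with another gene of the table. LINC01291, 5 exons at chr2:74918148-74938418 on the plus strand, had 19, 23 and 30 counts in the siNC libraries and 142, 155 and 152 in the siFBXL6 libraries. Every siFBXL6 library was far above every siNC library. Its level went from 0.407 ± 0.103 to 2.48 ± 0.115 CPM, the largest fold change of any member. The log2 fold change was 2.61 (SE 0.203, 95% interval 2.19 to 3.02; edgeR adjusted p = 1.23e-12). LINC01127, on the same chromosome at chr2:101962056-101987167 (plus strand, 4 exons), had 32, 26 and 14 counts against 137, 82 and 84. The groups did not overlap, with siFBXL6 replicate 1 above the other 2 of its group. Its level was 0.404 ± 0.152 against 1.67 ± 0.514 CPM, and it rose by a log2 fold change of 2.04 (SE 0.261, 95% interval 1.51 to 2.57; edgeR adjusted p = 7.41e-08).

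LINC00973 is a short transcript of 2 exons and 962 exon bases at chr3:98981058-98983096 on the plus strand. Its counts were 56, 54 and 51 in siNC and 203, 217 and 197 in siFBXL6. The libraries of each group lay close together and far from the other group. The level was 0.907 ± 0.0446 against 3.41 ± 0.168 CPM, a log2 fold change of 1.91 (SE 0.153, 95% interval 1.60 to 2.22; edgeR adjusted p = 2.34e-12). LINC01204, on the X chromosome (45505388 to 45630202, plus strand, 8 exons), had 70, 65 and 84 counts against 175, 165 and 188. All siFBXL6 libraries were above all siNC libraries. Its log2 fold change was 1.24 (SE 0.155, 95% interval 0.92 to 1.55; edgeR adjusted p = 4.97e-08). LINC00702, at chr10:4201141-4243912 on the minus strand, had 94, 99 and 101 counts against 210, 246 and 213. The groups were again apart, at 1.66 ± 0.0889 and 3.69 ± 0.33 CPM. It rose by a log2 fold change of 1.16 (SE 0.133, 95% interval 0.89 to 1.43; edgeR adjusted p = 8.99e-09). Each of the 5 was still called and at least 2-fold higher when any 1 library was left out.

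**Figure D3:**
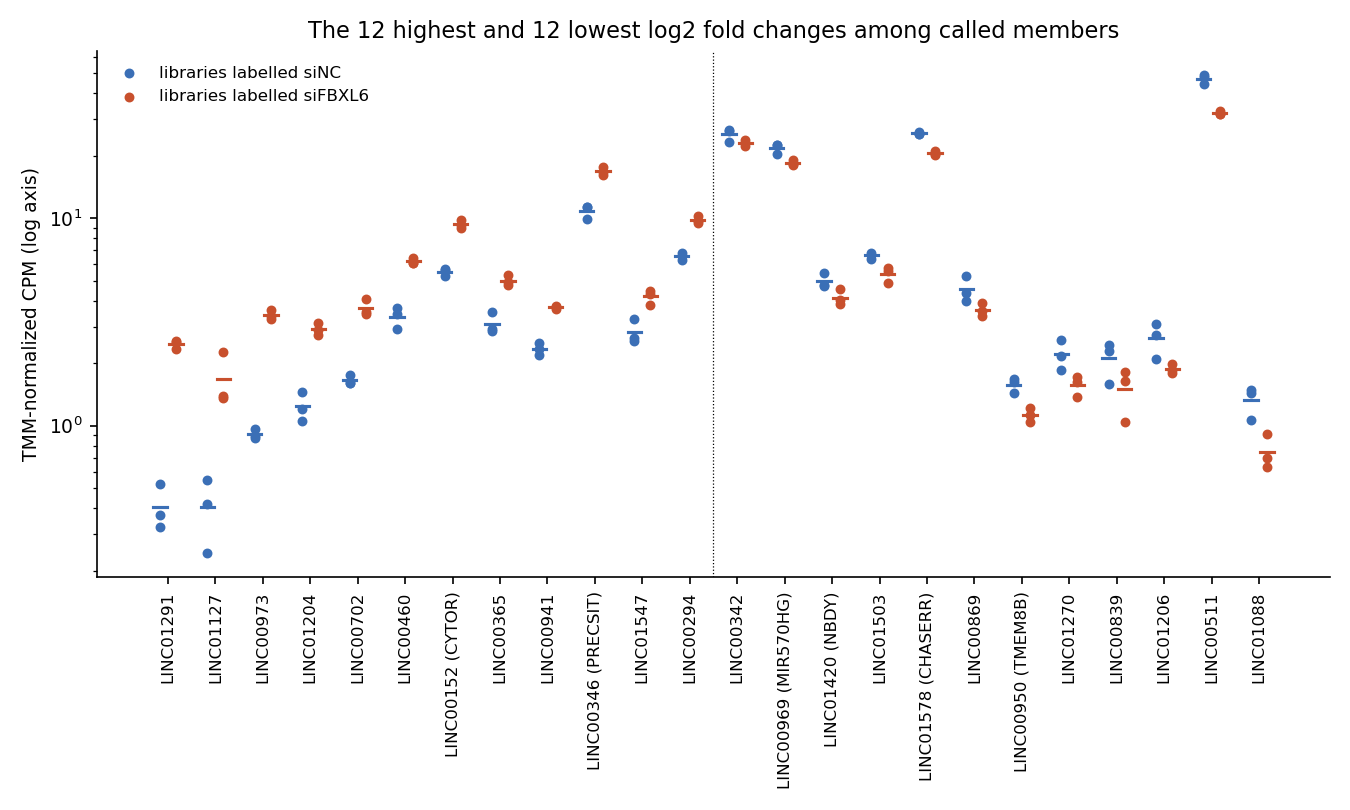
Normalized level (TMM-scaled CPM, log axis) in each of the 6 libraries for the 12 highest (left of the dotted line) and 12 lowest log2 fold changes among called members, with siNC libraries in blue, siFBXL6 libraries in red and group means as bars. The 12 that rose have no overlap between groups, while among the 12 that fell LINC00839 and LINC00342 overlap.

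The plot of members by library shows the 5 strongest rises at its left, where the siNC libraries lie below 2 CPM, so that these large ratios rest on scarce transcripts.

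Promoter sequences of RefSeq (GRCh38.p14, 250 bases before to 50 after the start) were matched for 77 of the 97 members, 67 of them with a start within 1 kb of that in the count table. For 10 members with more than 1 promoter, among them LINC00973 with 4, the one nearest to that start was used. No promoter was matched for LINC01291, LINC01127 and LINC01204, which are named only. The promoters below belong to the remaining 2 members that rose at least 2-fold, to LINC00460, the next largest rise, and to LINC00511, the member that fell with the highest raw count, and the last 2 were picked after their values were seen. They are shown so that members that rose can be set beside 1 that fell, each from 5′ to 3′ in the sense of its gene, with capitals marking the AP-1 letters TGACTCA on either strand (TGAGTCA is the same site read on the other strand). LINC00973 is chr3:98980805-98981104, plus strand. LINC00702 is chr10:4243863-4244162, minus strand. LINC00460 is chr13:106376314-106376613, plus strand. LINC00511 is chr17:72640423-72640722, minus strand.
LINC00973: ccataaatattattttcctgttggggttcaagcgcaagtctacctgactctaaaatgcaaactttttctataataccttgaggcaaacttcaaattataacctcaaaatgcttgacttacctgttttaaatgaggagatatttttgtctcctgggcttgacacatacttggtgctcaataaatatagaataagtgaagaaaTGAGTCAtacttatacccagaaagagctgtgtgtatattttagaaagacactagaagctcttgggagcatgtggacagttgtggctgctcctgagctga
LINC00702: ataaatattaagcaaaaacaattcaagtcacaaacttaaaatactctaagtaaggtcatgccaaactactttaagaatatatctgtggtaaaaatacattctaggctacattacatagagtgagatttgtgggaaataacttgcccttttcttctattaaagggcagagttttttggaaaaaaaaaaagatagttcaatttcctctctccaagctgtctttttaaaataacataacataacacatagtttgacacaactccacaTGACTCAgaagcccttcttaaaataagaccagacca
LINC00460: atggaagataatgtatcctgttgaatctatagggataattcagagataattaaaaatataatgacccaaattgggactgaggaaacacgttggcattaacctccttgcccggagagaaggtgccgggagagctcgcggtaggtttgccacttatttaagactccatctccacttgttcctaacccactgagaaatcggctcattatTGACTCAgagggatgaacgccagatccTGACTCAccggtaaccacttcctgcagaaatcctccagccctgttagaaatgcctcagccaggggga
LINC00511: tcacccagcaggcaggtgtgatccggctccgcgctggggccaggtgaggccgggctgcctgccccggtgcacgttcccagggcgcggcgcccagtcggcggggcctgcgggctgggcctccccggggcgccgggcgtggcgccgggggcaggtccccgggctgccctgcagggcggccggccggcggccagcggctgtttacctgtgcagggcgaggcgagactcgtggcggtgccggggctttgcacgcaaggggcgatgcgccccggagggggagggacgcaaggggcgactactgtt

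The letters TGACTCA, known as the site bound by AP-1 factors such as FOS and JUN, were found once in the promoter of LINC00973, once in that of LINC00702 and in 2 places in that of LINC00460, and not in that of LINC00511. Over the 77 members with a promoter they were present in 11 (14.3%), beside 4.95% of all 35116 promoters of the table. Among members that rose it was 6 of 19 (31.6%), among those that fell 0 of 9, and among those not called 5 of 49 (10.2%). The 6 that rose were LINC00973, LINC00702, LINC00460, LINC00152, LINC00346 and LINC00339. The 5 not called were LINC01629, LINC00963, LINC01411, LINC01001 and LINC01271. Letters are a description and not a site in use, and these shares were not tested. Members entered with 1 promoter each, while the share over the table counts every promoter of every gene. The 2 sets were not matched for class of gene or GC content.

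Other letters were searched on both strands in the same windows. The CRE letters TGACGTCA were in 1 of 77 members (1.3%, beside 1.85% of all promoters). The E-box CACGTG was in 4 (5.19% beside 7.26%) and the TATA box TATAAA in 7 (9.09% beside 11.5%). The NF-kB letters GGAATTTCC and GGGACTTTC were in 0 of 77 members, beside 0.849% of all promoters. None of the motifs searched contains another. Median GC content was 55.7% in promoters of members that rose, 62% in those that fell and 60.3% in those not called.

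The coding genes nearest on either side to the members that rose at least 2-fold, where they lay within 100 kb, rose too. This was 5 of 5, beside 20.5% of all genes tested. Of genes tested with mean counts of 1000 to under 10000, the range of HK2, 2221 of 6904 rose. From 300 to under 1000, the range of POLE4, it was 834 of 3983. IL1R2 lies just below a mean of 60, and MAP4K4 and DCBLD2 lie above 10000. All 5 neighbours lie by LINC01291, LINC01127 or LINC00973, the 3 that passed the floor through siFBXL6 alone. Their count therefore describes these genes and is read no further. The nearest to LINC01127 was IL1R2, the decoy receptor for interleukin-1, which starts 4.68 kb beyond it on the same strand. IL1R2 had 23, 26 and 14 counts in siNC and 122, 92 and 79 in siFBXL6. Its groups did not overlap, and siFBXL6 replicate 1 was the highest library for both genes. Its log2 fold change of 2.18 (SE 0.251; edgeR adjusted p = 8.47e-09) stands beside 2.04 for LINC01127. On the other side, MAP4K4, a kinase of stress signalling, lies 67.4 kb away and rose by a log2 fold change of 0.21 (edgeR adjusted p = 8.39e-07).

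LINC01291 lies between HK2 and POLE4. HK2, hexokinase 2 of glycolysis, is 24.8 kb away and had 2696, 2682 and 2425 counts in siNC against 4417, 4119 and 4341 in siFBXL6. Its groups were apart, and it rose by a log2 fold change of 0.69 (SE 0.038; edgeR adjusted p = 1.46e-16). POLE4, a subunit of DNA polymerase epsilon at 20.1 kb, had 426, 525 and 570 counts against 672, 593 and 658. Its groups overlapped in CPM, and its log2 fold change was 0.31 (SE 0.084; edgeR adjusted p = 0.00324). DCBLD2, a membrane receptor 79.4 kb from LINC00973, rose from 325 ± 2.23 to 517 ± 7.73 CPM, a log2 fold change of 0.67 (SE 0.028; edgeR adjusted p = 1.11e-19). On the other side of LINC00973 the nearest coding gene, COL8A1, lies 655 kb away and fell by a log2 fold change of -0.80 (edgeR adjusted p = 7.23e-08). No coding gene lay within 100 kb of LINC01204 or LINC00702. Whether member and neighbour share their regulation was not tested.

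The plot of neighbours shows that 4 of the 5 intervals lie below that of the member beside them, and that only the interval of IL1R2 overlaps it.

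Several members that rose by less than 2-fold are known from work on carcinomas. LINC00460 had 202, 181 and 211 counts in siNC against 390, 366 and 365 in siFBXL6. The groups were well apart, at 3.35 ± 0.382 and 6.19 ± 0.226 CPM. It rose by a log2 fold change of 0.89 (SE 0.103; edgeR adjusted p = 1.03e-08). LINC00152, now CYTOR, a transcript named for a role in the cytoskeleton, had 330, 352 and 302 counts against 541, 563 and 592. All siFBXL6 libraries were higher, and the log2 fold change was 0.76 (SE 0.08; edgeR adjusted p = 1.34e-09). Of the 100-base tiles of its exons, 50% had no single place in the genome, and its near copy MIR4435-2HG rose as well (log2 fold change 0.49, edgeR adjusted p = 2.39e-08), so that the division of reads between the pair is uncertain. LINC00152 also shares 100 exon bases with AC133644.2 on the opposite strand, which rose by 0.81 (edgeR adjusted p = 1.25e-08).

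LINC00346, now PRECSIT, a single-exon transcript named as p53-regulated and as an activator of STAT3, had 662, 615 and 648 counts in siNC against 974, 1008 and 1058 in siFBXL6. The groups did not overlap, and it rose from 10.9 ± 0.778 to 16.8 ± 0.729 CPM (log2 fold change 0.63; edgeR adjusted p = 5.87e-10). LINC00941 had 136, 155 and 125 counts against 221, 227 and 225. Again no siFBXL6 library reached down to the siNC range (log2 fold change 0.67; edgeR adjusted p = 2.73e-05). LINC00365 rose by a log2 fold change of 0.69 (edgeR adjusted p = 3.61e-06) and LINC01605, on chromosome 8, by 0.45 (edgeR adjusted p = 2.23e-05), both without overlap. LINC00165 rose by 0.41 and LINC00662 by 0.30. The call for LINC00662 was lost without siFBXL6 replicate 3 (adjusted p = 0.0625).

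LINC01468, now LNCAROD, was named as an activating regulator of the nearby gene DKK1, a secreted WNT inhibitor. It was the most abundant member, with 5755, 5719 and 5182 counts in siNC and 6641, 7240 and 6748 in siFBXL6. The groups did not overlap although the change was small, from 93.7 ± 4.2 to 114 ± 5.29 CPM. The log2 fold change was 0.28 (SE 0.036, 95% interval 0.21 to 0.35; edgeR adjusted p = 5.95e-08). DKK1 had 422, 511 and 428 counts against 386, 385 and 376. It fell by a log2 fold change of -0.27 (edgeR adjusted p = 0.00732), the opposite direction to LINC01468.

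Among the 12 members that fell, LINC00511 had the highest raw count. This transcript of 25 exons at chr17:72323123-72640472 (minus strand), often described as raised in carcinomas, had 2590, 2954 and 2826 counts in siNC and 1921, 1984 and 1908 in siFBXL6. All 3 siFBXL6 libraries were far below all siNC libraries. Its level fell from 47.1 ± 2.54 to 32.1 ± 0.658 CPM, a log2 fold change of -0.55 (SE 0.042, 95% interval -0.64 to -0.47; edgeR adjusted p = 6.75e-13). LINC01088, at chr4:78971748-79308798 on the plus strand, showed the largest fall but is scarce, with 87, 89 and 61 counts against 55, 38 and 42. The groups did not overlap, and the log2 fold change was -0.84 (SE 0.219, 95% interval -1.28 to -0.39; edgeR adjusted p = 0.00227).

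LINC01578, now CHASERR, lies just before CHD2, a chromatin remodeller, and is named for suppressing that neighbour. Its counts were 1493, 1611 and 1456 in siNC and 1220, 1271 and 1231 in siFBXL6. The groups were apart, at 25.7 ± 0.377 and 20.5 ± 0.447 CPM. It fell by a log2 fold change of -0.32 (SE 0.048; edgeR adjusted p = 1.38e-06). CHD2 had 26681, 26273 and 23403 counts in siNC against 28134, 28225 and 28265 in siFBXL6, and rose from 430 ± 24.6 to 467 ± 1.87 CPM. Its log2 fold change was 0.12 (SE 0.032; edgeR adjusted p = 0.00273), again the opposite of the member beside it.

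Of the other 9 members that fell, 8 lost the call in some setting. LINC00969, the host of MIR570, kept it, with a log2 fold change of -0.24 (edgeR adjusted p = 3.85e-04). LINC01206 had 159, 191 and 120 counts against 112, 120 and 108, without overlap in CPM, and a log2 fold change of -0.49 (edgeR adjusted p = 0.00882). Without siNC replicate 2 that p was 0.0978. LINC01503 fell by a log2 fold change of -0.29 (edgeR adjusted p = 0.00885), and without siFBXL6 replicate 3 that p was 0.0818. LINC00839 had 143, 142 and 91 counts against 63, 110 and 99, with siNC replicate 3 inside the siFBXL6 range. Its log2 fold change was -0.49 (edgeR adjusted p = 0.0322), and the adjusted p was 0.133, 0.129 and 0.259 without siNC replicate 1, siNC replicate 2 and siFBXL6 replicate 1 in turn. LINC00869 (-0.33, edgeR adjusted p = 0.0195) had adjusted p values of 0.18, 0.0919 and 0.0619 without siNC replicate 3, siFBXL6 replicate 1 and siFBXL6 replicate 2. LINC00342 had the smallest change (-0.14, edgeR adjusted p = 0.0313), overlapped between groups, and had adjusted p values of 0.117, 0.148, 0.132 and 0.0837 without siNC replicates 1 and 2 and siFBXL6 replicates 1 and 3.

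The 6 members that RefSeq classes as coding include small proteins first read as noncoding. LINC00998, which encodes the small membrane protein SMIM30, had 666, 696 and 622 counts in siNC and 896, 846 and 896 in siFBXL6. The groups did not overlap, and it rose by a log2 fold change of 0.38 (SE 0.062; edgeR adjusted p = 4.78e-06). LINC00493, which encodes SMIM26, rose by a log2 fold change of 0.34 (edgeR adjusted p = 0.0335), but its adjusted p reached 0.148 with a library left out and missed the threshold without siNC replicate 2, siFBXL6 replicate 1 or siFBXL6 replicate 2. LINC01420 encodes NBDY, a microprotein of the mRNA decapping complex, and had 278, 290 and 313 counts against 275, 232 and 242. The groups lay close to each other without overlap in CPM. The log2 fold change was -0.26 (edgeR adjusted p = 0.0416), with adjusted p values of 0.2, 0.167 and 0.118 without siNC replicate 3, siFBXL6 replicate 2 and siFBXL6 replicate 3. LINC00950, now part of TMEM8B, had a log2 fold change of -0.48 (edgeR adjusted p = 0.0325), and values of 0.0994, 0.0755, 0.105 and 0.0714 without siNC replicates 2 and 3 and siFBXL6 replicates 2 and 3. LINC00094 (BRD3OS) was at -0.05 (edgeR adjusted p = 0.503) and LINC00672 (LASP1NB) at -0.42 (edgeR adjusted p = 0.117), and neither was called, although LINC00672 was without siFBXL6 replicate 1 (adjusted p = 0.0377).

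Levels can be set side by side between members only per length of exon. CPM per kb of exon ran from 0.147 to 88.2 over the members, with a median of 1.26. LINC01468 was at 79.6 ± 3.57 CPM per kb in siNC and 96.8 ± 4.5 in siFBXL6. The next was LINC00342 at 9.71 ± 0.653 and 8.83 ± 0.288. LINC00998 (5.89 ± 0.154 and 7.68 ± 0.255) and LINC01106 (5.95 ± 0.554 and 7.36 ± 0.281) came next and do not differ beyond their spread between replicates. LINC01411 followed at 6.17 ± 0.311 and 5.81 ± 0.115 and was not called (log2 fold change -0.09, edgeR adjusted p = 0.175). LINC01605 was at 4.87 ± 0.539 and 6.64 ± 0.339, LINC01123 at 5.08 ± 0.158 and 5.93 ± 0.36. For LINC01106 and LINC01123, 90.7% and 93.8% of exon tiles had no single place in the genome, so that their ranks are uncertain. LINC00674 was at 5.84 ± 0.404 and 5.05 ± 0.846 (log2 fold change -0.21, edgeR adjusted p = 0.154), and was called only without siFBXL6 replicate 2 (-0.35, adjusted p = 0.0301).

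**Figure D4:**
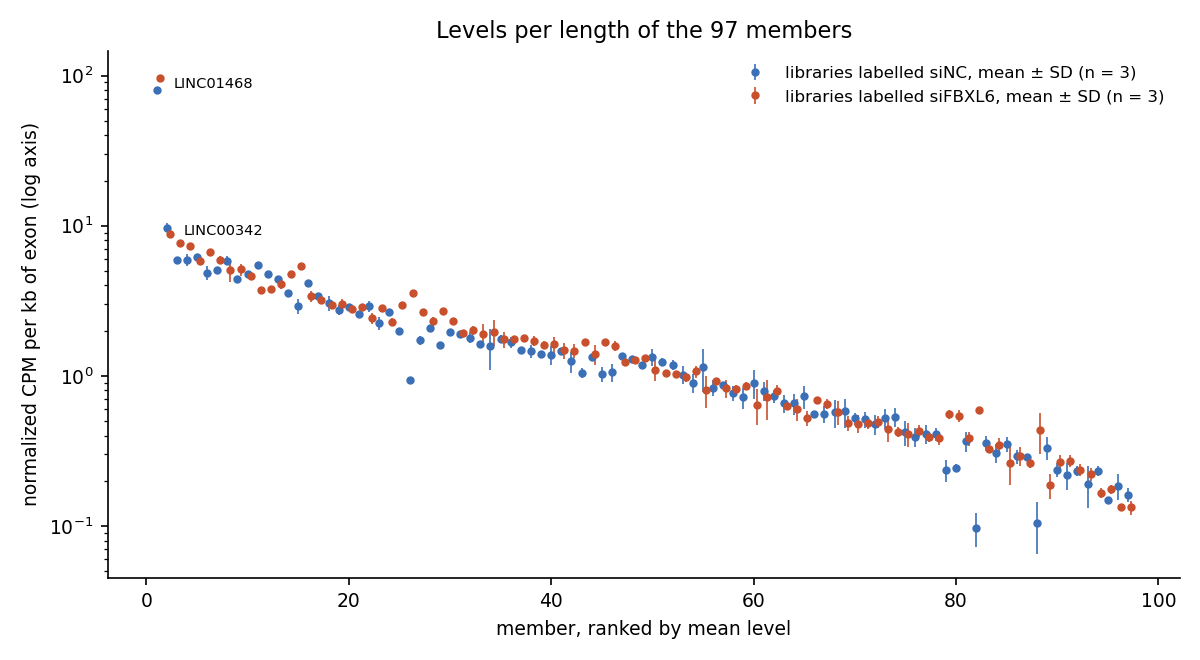
Normalized level per kb of exon (CPM per kb, log axis) of the 97 members ranked by their mean over 6 libraries, as group mean with SD (n = 3) for siNC in blue and siFBXL6 in red. LINC01468 lies at 88.2 on average, the next member, LINC00342, at 9.27, and the median member at 1.26.

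The ranked plot of levels per length shows a single member apart at the top and a gradual fall over the other 96. The 2 colours are farthest apart for the 5 members that rose at least 2-fold.

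Members were spread over 23 chromosomes, with 11 on chromosome 1, 8 each on 10 and X and 7 each on 2 and 9. Summed exon length ran from 581 to 17599 bases with a median of 3490, and the median member had 5 exons, while 11 had a single exon. Members that rose had a median of 2998 exon bases and 4 exons. Those that fell had 4695 bases and 7.5 exons, and those not called 3650 bases and 5 exons. Median levels were 2.16, 0.956 and 0.926 CPM per kb in the same order. These values describe the groups of members and were not tested.

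Exon bases shared with other genes make some counts uncertain. Of the 97 members, 42 share exon bases with another gene, 35 with a gene on the opposite strand and 11 with a gene on the same strand, and 55 share none. The overlap is above 10% of the exon bases for 20 members and above 50% for 2, LINC01089 (51.3%) and LINC01271 (59.2%). Of the called members, 9 that rose and 6 that fell share bases, as do 27 of those not called. The strand setting used for counting is not given in the sources used here, and without it genes that overlap on opposite strands cannot be told apart in these counts.

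LINC00294 and its opposite-strand neighbour PIGCP1, a pseudogene, share 312 bases. LINC00294 had 386, 389 and 392 counts in siNC against 571, 586 and 614 in siFBXL6. All siFBXL6 libraries were higher, with a log2 fold change of 0.57 (edgeR adjusted p = 1.45e-07), and PIGCP1 rose by 0.55 (edgeR adjusted p = 3.08e-08). LINC00294 also shares 263 opposite-strand bases with CSTF3, which was at -0.05 (edgeR adjusted p = 0.249) and not called. LINC00969 shares 2001 bases on the same strand with the pseudogene SDHAP2, and both fell by the same log2 value of -0.24 (edgeR adjusted p = 0.00348 for SDHAP2). LINC01270 and LINC01271 overlap on opposite strands by 1333 bases. LINC01270 had a log2 fold change of -0.48 (edgeR adjusted p = 0.0158), with adjusted p values of 0.127 and 0.092 without siNC replicate 3 and siFBXL6 replicate 2. LINC01271 was at -0.28 (edgeR adjusted p = 0.115) and not called. LINC01089 shares 2011 bases with RP11-347I19.7 on the opposite strand, which was at 0.08 (edgeR adjusted p = 0.73). It also shares 1724 bases with RHOF, a small GTPase, on the same strand, and was at -0.04 (edgeR adjusted p = 0.832) while RHOF rose by 0.45 (edgeR adjusted p = 2.03e-09).

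LINC00511 shares 35 bases with RP11-57A1.1, a gene on the opposite strand that fell by a log2 fold change of -0.51 (edgeR adjusted p = 9.31e-07). LINC01578 shares 225 bases with RP11-437B10.1 on its own strand, which rose by 0.20 (edgeR adjusted p = 8.88e-05) while LINC01578 fell. LINC00667 shares 773 bases with LINC00526, another member, on the opposite strand. LINC00667 rose by 0.27 (edgeR adjusted p = 0.0017) and LINC00526 was at -0.13 (edgeR adjusted p = 0.662). LINC00339 shares 401 bases with the scarce RP1-224A6.3 and rose by 0.26 (edgeR adjusted p = 0.0276), a call lost without siNC replicate 1 and without siFBXL6 replicate 1 or 2, with an adjusted p of up to 0.104.

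Copies elsewhere in the genome add to this. More than 10% of 100-base exon tiles had no single place in the genome for 18 members, and more than 50% for 7. LINC01123 (93.8% of tiles) rose by a log2 fold change of 0.22 (edgeR adjusted p = 0.00156) and LINC01106 (90.7%) by 0.31 (edgeR adjusted p = 7.68e-05). LINC00869 (65.7%) is the only one of the 7 that fell. LINC01296 (83.6%) was at 0.01 (edgeR adjusted p = 0.926), and the separate entry for DUXAP9 was at 0.10 (edgeR adjusted p = 0.366). LINC01001 (81.3%), LINC00623 (62.5%) and LINC00863 (59.4%) were not called either. For these members the assignment of reads to 1 copy is uncertain.

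Divergent pairs, in which a member starts within 1 kb of the start of a coding gene on the other strand, were formed by 11 members. In some of them the 5′ ends of the 2 genes overlap. LINC01547 starts 97 bases from FAM207A and had 149, 202 and 152 counts in siNC against 260, 270 and 231 in siFBXL6. It rose without overlap by a log2 fold change of 0.57 (edgeR adjusted p = 1.87e-04), while FAM207A fell by a log2 fold change of -0.38 (edgeR adjusted p = 7.31e-09). LINC01184 starts 594 bases from SLC12A2, a sodium, potassium and chloride cotransporter. Its counts of 562, 634 and 488 in siNC against 676, 721 and 614 in siFBXL6 overlapped in CPM, and it rose by a log2 fold change of 0.23 (edgeR adjusted p = 0.0147), with adjusted p above the threshold without siNC replicate 3 or siFBXL6 replicate 2 and up to 0.117. SLC12A2 fell by -0.25 (edgeR adjusted p = 1.41e-06). In both of these pairs the member rose while its partner fell.

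The other 9 divergent members were not called. Of their coding partners, 3 rose (ATP2B1, ZNF407 and CXorf40A), 4 fell (ZC3H12A, ZNF41, ATP5O and SETD1B) and 2 were not called, beside 40.2% of all genes tested called, and 45.3% and 60.9% of those with mean counts of 300 to under 1000 and 1000 to under 10000. ZNF41, a zinc finger gene, fell by a log2 fold change of -0.44 (edgeR adjusted p = 1.31e-10), beside 0.08 for LINC01560 (edgeR adjusted p = 0.755). ATP2B1, a calcium pump of the plasma membrane, rose by 0.17 (edgeR adjusted p = 3.65e-05), beside 0.22 for LINC00936 (edgeR adjusted p = 0.237). ZC3H12A, an RNase that degrades inflammatory mRNAs, fell by -0.18 (edgeR adjusted p = 9.02e-04), beside 0.24 for LINC01137 (edgeR adjusted p = 0.238). LINC00936, LINC00894, LINC00893, LINC00649 and LINC00476 share 82, 159, 347, 300 and 277 exon bases with their coding partners. With the strand setting not given, the counts of these pairs may not be separate.

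The 62 members not called ran from LINC00471 at a log2 fold change of -0.48 (edgeR adjusted p = 0.082) to LINC01629 at 0.32 (edgeR adjusted p = 0.281). LINC00471 was called without the low-count filter and without siNC replicate 2 or siFBXL6 replicate 1, with an adjusted p as low as 0.00711. The abundant ones among them had narrow intervals. LINC00963 had 1447, 1591 and 1381 counts in siNC and 1535, 1548 and 1508 in siFBXL6, with overlap between the groups. The log2 fold change was 0.03 (SE 0.047, 95% interval -0.07 to 0.12). LINC01411 had 1323, 1533 and 1318 counts against 1323, 1317 and 1362, and a 95% interval of -0.19 to 0.01. LINC00649 had 1133, 1100 and 1085 counts against 1137, 1036 and 1117, overlapping, with an interval of -0.15 to 0.07. For LINC00467 (1216, 1204 and 1076 against 1186, 1018 and 1085) the log2 fold change was -0.12 (edgeR adjusted p = 0.115), and it was called without siFBXL6 replicate 1 (adjusted p = 0.0311). Among these 4, the intervals reach no further than -0.23 and 0.12.

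Long noncoding RNAs with a name of their own moved in both directions as well. Of 40 such genes listed, 39 were in the table, 35 were tested and 22 were called, with 13 higher and 9 lower, beside 40.2% called, 20.5% higher and 19.8% lower over all genes tested. Their median log2 fold change was 0.04, beside 0.06 for the members, and LINC00152 belongs to both. LUCAT1, a stress-induced transcript, had 863, 789 and 745 counts in siNC against 1383, 1488 and 1415 in siFBXL6. The groups were apart, and it rose by a log2 fold change of 0.81 (edgeR adjusted p = 1.51e-13). NEAT1, the scaffold of paraspeckles, rose by 0.42 (edgeR adjusted p = 7.75e-14). MIR31HG, the host of MIR31, had 198, 194 and 193 counts against 104, 119 and 114. It fell without overlap by a log2 fold change of -0.82 (edgeR adjusted p = 4.34e-06). UCA1, known for its level in bladder cancer, fell by -0.12 (edgeR adjusted p = 0.00192).

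Proteins that export, splice, retain and degrade noncoding RNAs, or that some of them bind, were taken as a list of 36 genes, all tested. Of these 24 were called, 7 higher and 17 lower, with a median log2 fold change of -0.08, beside 40.2% called, 20.5% higher and 19.8% lower over all genes tested, and 60.9% called among genes with a mean count of 1000 to under 10000. PSPC1, a paraspeckle protein, and SRRT, which joins the cap complex to RNA processing, each fell by -0.35 (edgeR adjusted p = 5.32e-12 and 7.25e-11). ALYREF, an mRNA export adaptor, fell by -0.32 (edgeR adjusted p = 5.2e-10). ZCCHC7, a subunit of a complex that feeds RNA to the nuclear exosome, rose by 0.40 (edgeR adjusted p = 6.62e-11). Their part in the members' changes was not tested.

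Signs of RNA class moved with the groups beside the members. Mitochondrial transcripts took 5.82%, 6.28% and 6.29% of counts in siNC and 5.33%, 5.30% and 5.45% in siFBXL6, without overlap. The nuclear-retained MALAT1, NEAT1 and KCNQ1OT1 together took 0.125%, 0.12% and 0.116% against 0.137%, 0.141% and 0.136%. These 3 did not move alike, since NEAT1 rose by a log2 fold change of 0.42 and MALAT1 by 0.10 with overlapping groups, while KCNQ1OT1 fell by -0.51 (edgeR adjusted p = 1.8e-06). Replication-dependent histone genes, whose mRNAs lack poly(A) tails, took 0.00278%, 0.00288% and 0.00273% against 0.00266%, 0.00255% and 0.00244%. All 975 LINC-named genes took 0.0707%, 0.0713% and 0.0708% against 0.0735%, 0.0749% and 0.0737%. The part of these in the members' result was not tested.

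Markers were mainly those of an epithelial line. Of 12 epithelial and urothelial markers, 10 were tested and 8 called, 2 higher and 6 lower, beside 40.2% called, 20.5% higher and 19.8% lower over all genes tested. They had sums of 4005, 3878 and 3987 CPM in siNC and 3558, 3545 and 3560 in siFBXL6. KRT7 was the most abundant, and the uroplakins UPK1B and UPK3A were near 0, at most 6 counts in a library. The mesenchymal markers VIM and CDH2 summed to 155, 151 and 153 CPM against 117, 118 and 116. CDH2 was the more abundant and fell by a log2 fold change of -0.59, while VIM rose by 0.70. In siNC, CDH2 was at 138 and VIM at 15.6 CPM, beside 437 for KRT5, 134 for TP63 and 118 for CDH1. That the cells are T24 rests on the labels and was not tested. The 7 fibroblast and smooth muscle markers summed to 52.2, 52.4 and 51 CPM against 44.7, 44.2 and 43.3. COL1A1 led them, ACTA2 and COL1A1 fell, and DCN and LUM were near 0.

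Markers of blood and nerve cells were low. The 4 leukocyte markers summed to 7.32, 7.66 and 7.47 CPM in siNC and 20.1, 18.3 and 19.4 in siFBXL6. Nearly all of this was CD68, a lysosomal protein that many cell types express, which rose by a log2 fold change of 1.49, while PTPRC was at 0.508 and 0.331 CPM and CD3E had at most 4 counts in a library. The 3 endothelial markers summed to 1.85, 1.59 and 1.72 CPM against 2.38, 2.15 and 3.2, with CDH5 near 0. VWF was the most abundant in siNC, and in siFBXL6 it was PECAM1, which was called higher by 1.28. The 2 neural markers, SYP and the scarcer RBFOX3, summed to 1.44, 1.1 and 1.31 CPM against 1.31, 1.14 and 1.69, and neither was called (edgeR adjusted p = 0.284 and 0.07). The part of these markers in the members' result was not tested.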

How the data were processed

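RNA-seq of 6 T24 libraries, 3 siNC and 3 siFBXL6, was read from the deposited table, whose values are raw counts per gene made by the authors. For upstream steps the paper names Trimmomatic, HISAT2 and featureCounts, while the submitters' processing notes name fastp 0.23.0, STAR and featureCounts of Subread 1.5.1, both on GRCh38. Annotation release, strand setting and the treatment of reads shared by genes or of read pairs are not given in either. Of 55175 counts from 1 to 10, 73.1% were even (50.3% of the 582 member counts). If the ends of a pair were counted singly, counts, the floor included, exceed the number of fragments, and which was done was not tested. Groups and replicate numbers came from sample labels.

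Members had a symbol of LINC and digits and a mean raw count of 60 or more. Genes were filtered with edgeR 4.0.16 filterByExpr (R 4.3.3, limma 3.58.1), scaled by TMM and tested by quasi-likelihood with condition as the only term, with p-values adjusted (Benjamini-Hochberg) over 21298 genes. Intervals are 95% model intervals. The BCV was 3.57%, and total counts ran from 56814946 to 60968158, so that counting error is part of each interval. The two-sided exact permutation test used scipy 1.17.1. Shared exon bases were found with bedtools 2.31.1. Exon tiles of 100 bases every 50 were placed with minimap2 2.31, and those with mapping quality under 10 or none were taken as without a single place. Of 33906 names shared with GENCODE 44, 33805 overlapped in position.

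Named members were the 12 called members that rose most and the 12 that fell most, the 8 highest levels per kb, 3 on either side of the floor, members that share bases, and, for those at least 2-fold, coding genes within 100 kb. Other members and genes named outside this rule, among them CHD2, DKK1, MIR4435-2HG, DUXAP9, the divergent and overlapping partners and the members not called, were chosen after their values were seen. Members and lists were chosen with earlier results of these data known. Alternatives were DESeq2 1.42.0, other scalings, filters and floors, a replicate block, leaving out each library, and membership without shared bases. Membership by RefSeq class and by tile placement was chosen after seeing the data. Reads and sequence variants were not analysed here.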

Additional observations from a re-analysis of the deposited data

How the results depend on the processing

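Of the 35 calls, 23 were kept in all 13 alternative fits and 12 were lost in some, while 7 members gained a call in some. DESeq2 called 6 lower members in place of 12. The median log2 fold change, 0.06, was 0.04 with upper-quartile scaling and with library size alone, 0.13 with a floor of 120, and 0.02 to 0.08 with 1 library left out. The count of at least 2-fold changes, 5, was 3 with a floor of 120, 7 with a floor of 30, and 5 to 6 with 1 library left out, the 6 being without siFBXL6 replicate 1, where LINC01088 was at -1.0. It was 2 with a mean of 60 in each group, which removes members that passed the floor through 1 group alone. Members that share no exon base gave 20 called, 14 higher and 6 lower, of 55. At least 1.5-fold besides gave 11. With 1 library left out, 29 to 34 were called, and LINC00852 ranged from -0.37 to 0.07, positive without siFBXL6 replicate 2. Among 429 values of 33 named members, 399 kept their direction and side of the threshold, 28 lost the call, 1 gained it and 1 reversed. The cause of the DESeq2 and scaling differences was not tested. Membership by RefSeq class (31 of 90 called) and by tile placement (29 of 79), both chosen after seeing the data, kept 5 at least 2-fold. Depth limits what can be called below a mean count of 120.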
